A study of Homo sapiens with 8 samples.

Results

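The genes described here are the core switches of the cell division cycle: cyclins, the cyclin-dependent kinases (CDKs) they activate, the inhibitors, phosphatases and kinases that turn CDKs off and on, and the E2F and RB proteins that pass the signal to transcription. The set was a list of 55 gene symbols, and all 55 were among the 23346 symbols of the count table. The RNA came from 22Rv1, a human prostate cancer cell line, and was measured by sequencing. Cells were transfected in suspension at 20 nM, in 4 libraries with a mimic of the microRNA miR-194 and in 4 with a negative control RNA, and were collected 36 h later. All 8 libraries thus share the line and a transfected RNA, the control RNA's sequence is unstated in the labels, and untransfected cells were not analysed here. A gene higher with the mimic is equally a gene lower with the control. The study asks how miR-194 acts after transcription as prostate cancer cells take on neuroendocrine traits.

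A cell commits to division when D-type cyclins with CDK4 or CDK6, and then E-type cyclins with CDK2, phosphorylate the RB family of pocket proteins. E2F factors are then free to switch on the genes of DNA synthesis, and later a wave of mitotic genes follows, driven by B-MYB and FOXM1 and carried out by CDK1 with the B-type cyclins. A microRNA lowers transcripts whose 3' untranslated region (UTR) pairs with its seed, bases 2 to 8 from its 5' end.

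The guide strand of miR-194 is shown because its seed defines the sites looked for in each gene. It is the RefSeq mature sequence (GRCh38.p14), identical from the copy on chromosome 1 (minus strand, 220118206 to 220118227) and the copy on chromosome 11 (minus strand, 64891404 to 64891425), with the seed in capitals.
hsa-miR-194-5p: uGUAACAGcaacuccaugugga

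Among the 55 genes, 12 of those tested held an 8mer or 7mer match to this seed in their longest 3' UTR, as annotated by GENCODE 29 on GRCh38 and joined to the counts by symbol. An 8mer is CTGTTACA, a 7mer-m8 lacks the final A and a 7mer-A1 lacks the first C. The stretches below are 30 bases each, with the match in capitals, and are printed because their genes did different things: the first 5 genes fell with the mimic, CDKN1B and CDK13 rose, and E2F6 and CCNH did not pass the test.
CDK6 8mer, chr7:92610211-92610218, minus strand: ctgctgaaataCTGTTACAgcaatttgaag
WEE1 7mer-A1, chr11:9588827-9588833, plus strand: tcactgttggaTGTTACAccagcctttcca
CDK14 8mer, chr7:91207962-91207969, plus strand: ttccatccattCTGTTACActttgtatttt
CCND1 7mer-A1, chr11:69652821-69652827, plus strand: tctgcctttgaTGTTACAgatttaatacag
E2F3 7mer-A1, chr6:20493606-20493612, plus strand: gtaaatagattTGTTACAgggtgacctgtt
CDKN1B 7mer-A1, chr12:12722328-12722334, plus strand: atgccaattatTGTTACAcattaagtaatc
CDK13 8mer, chr7:40096610-40096617, plus strand: aattggaacaaCTGTTACAgaatgtatatt
E2F6 8mer, chr2:11445356-11445363, minus strand: tgtcataatcaCTGTTACAtcccagtgcct
CCNH 8mer, chr5:87393989-87393996, minus strand: aggtatttcaaCTGTTACAtggtactgaaa

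Library totals ran from 32485036 to 47248241 counts. CCND2, a D-type cyclin, had 2, 2, 1 and 1 counts in the mimic and 1, 2, 0 and 2 in the control libraries, within the 3 counts taken as the floor, and was not tested, so 54 of the 55 genes entered the test. The lowest count of any tested gene in any library was 185. As a check of the label, 10 luminal prostate markers summed to 5478 to 5819 CPM (counts scaled to library size) in the mimic and 5213 to 5445 CPM in the control libraries, and 6 of them rose and 1 fell. What part the luminal genes' shift has in the results was not tested. The endothelial genes PECAM1 and CDH5 had no count in any library. The 5 leukocyte markers summed to 0.904 to 1.04 CPM with the mimic and 0.784 to 1.26 CPM with the control, and the 6 fibroblast markers, mostly LUM and COL1A1, to 47.8 to 56.3 and 44.3 to 52.1 CPM. Libraries also parted by number, replicates 1 and 2 from 3 and 4, on the second principal component. Whether replicates were separate cultures is unstated, so the p-values reflect no more than the spread among these samples, which may be technical.

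With the mimic, 27 of the 54 tested genes fell and 9 rose at an adjusted p below 0.05 (edgeR's quasi-likelihood test, Benjamini-Hochberg adjustment over all 14977 genes tested), and 18 did not pass. The 36 genes that passed are 66.7% of the 54, where 38.1% of all tested genes passed. By direction, 27 of 54 fell, where 19.9% of all tested genes fell, and 16.7% rose, where 18.3% of all tested genes rose. The share that rose is thus near that of the whole table. The counts by role given below stand beside these same shares, 19.9% lower and 18.3% higher. The median log2 fold change of the 54 genes was -0.14, against 0.00 over all tested genes, and single values ran from -0.73 for WEE1 to 0.38 for E2F2, so none of these genes changed as much as 2-fold. In 27 genes every mimic library was below every control library (19.5% of all tested genes), and in 7 every mimic library was above (17.4%), where 36.9% of all tested genes kept the groups apart in either direction. In bulk RNA, less of a transcript in each cell and fewer cells in the phase that makes it cannot be told apart.

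**Figure D1:**
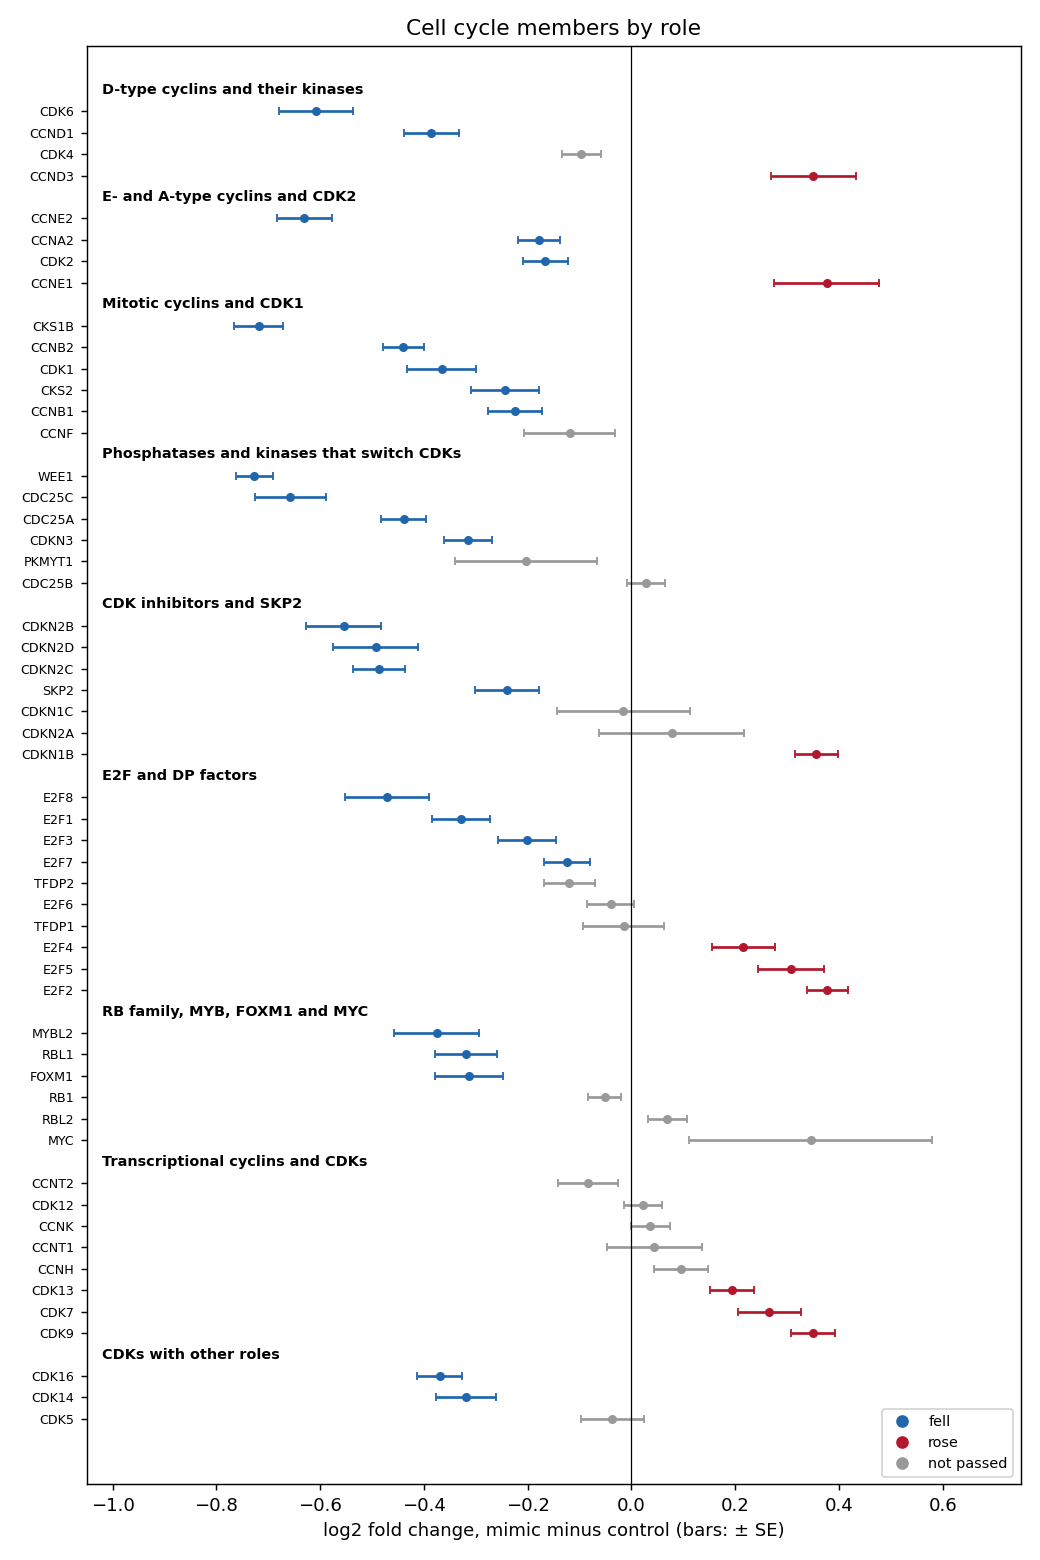
Log2 fold change (mimic minus control, x axis) of the 54 tested genes in rows grouped by role, with bars of ± SE. Points are blue where the gene fell, red where it rose and grey where it did not pass an adjusted p of 0.05. Most groups lean to the left except the transcriptional cyclins and CDKs, of which 3 of 8 rose (18.3% of all tested genes rose).

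In the cyclin D pair that opens G1, CCND1 and CDK6 fell while CCND3 rose. CDK6, a kinase partner of D-type cyclins, stood at 34.8, 35.03, 36.3 and 38.7 CPM in mimic libraries 1 to 4 and at 51.8, 48.9, 61.4 and 58.8 CPM in control libraries 1 to 4. The groups did not overlap, and the log2 fold change was -0.61 ± 0.07 (SE; edgeR adjusted p = 5.14e-05). CCND1, which encodes cyclin D1, had 2993, 3407, 3217 and 2818 CPM with the mimic. In the controls it had 4032, 4134, 4155 and 3920 CPM, each above the highest mimic library, and its log2 fold change was -0.39 ± 0.05 (edgeR adjusted p = 0.000154). CCND3, which encodes cyclin D3, moved the other way. It had 39.2, 38.7, 35.2 and 36.3 CPM with the mimic and 31.0, 33.3, 24.6 and 28.1 CPM without it, again with no overlap, a log2 fold change of 0.35 ± 0.08 (edgeR adjusted p = 0.00605). CDK4, the other kinase of this step, averaged 244 ± 9.32 CPM with the mimic and 261 ± 9.31 CPM with the control (SD, n = 4 each), and its log2 fold change of -0.10 missed the threshold (edgeR adjusted p = 0.0659). It passed with the replicate block, at the same log2 fold change of -0.10 (adjusted p = 0.0148), with library totals alone (0.0318), without mimic replicate 1 (0.0286) and without control replicate 3 (0.0420).

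The 2 E-type cyclins, which carry cells from G1 into S phase with CDK2, moved in opposite directions. CCNE2 had 54.9, 51.3, 55.8 and 61.4 CPM with the mimic and 84.5, 83.5, 87.9 and 90.3 CPM with the control. All mimic values were lower, and the log2 fold change was -0.63 ± 0.05 (edgeR adjusted p = 3.49e-06), a level that fell by 35.4%. CCNE1 rose by 0.38 ± 0.10 on the log2 scale (edgeR adjusted p = 0.0118), and its values are given because of the contrast, a choice made after they were seen. With the mimic it had 10.4, 7.997, 10.4 and 11.1 CPM and with the control 8.26, 8.15, 7.18 and 7.27 CPM, so mimic replicate 2 lay among the controls. The call was lost within replicates 1 and 2 alone, where the log2 fold change was 0.18 (edgeR adjusted p = 0.248). CCNA2, the cyclin A of S phase and G2, had 179, 184, 170.1 and 169 CPM against 200.01, 207, 199 and 188 CPM in the controls. It fell by 0.18 ± 0.04 on the log2 scale (edgeR adjusted p = 0.00436), without overlap. CDK2 itself had 223, 222, 217 and 202 CPM with the mimic and 249.7, 254, 235 and 231 CPM with the control, a small fall of 10.9% in which the groups again kept apart (edgeR adjusted p = 0.00974).

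**Figure D2:**
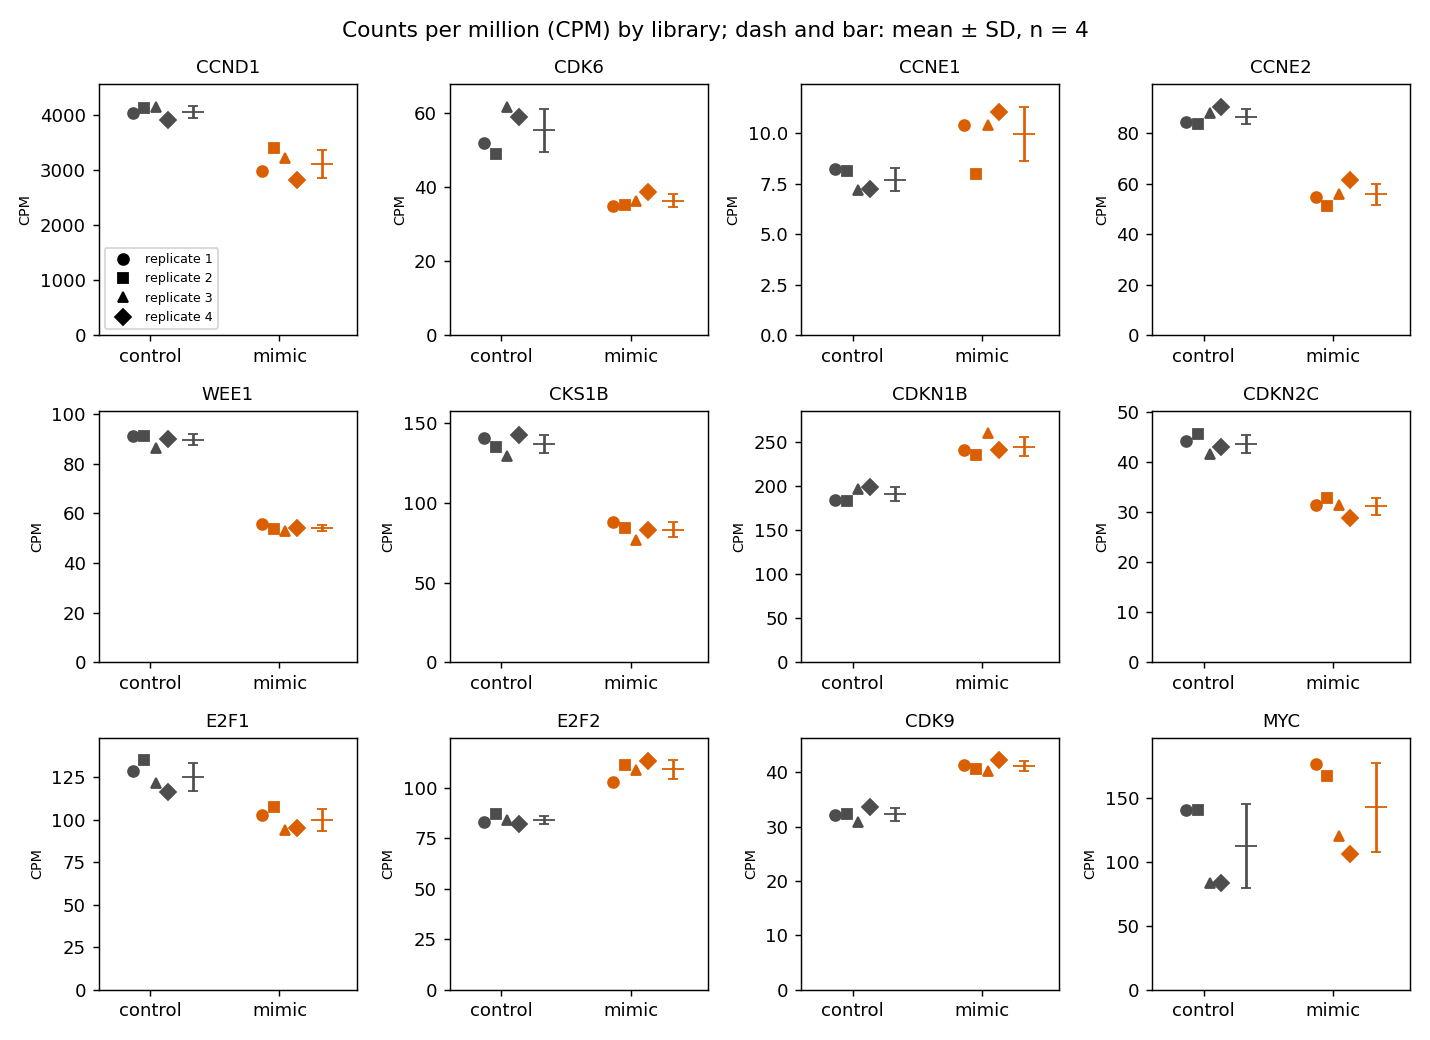
CPM (y axis, from 0) of 12 genes in each control and mimic library, with marker shapes for replicates 1 to 4 and a dash with bar for the mean ± SD of 4 libraries. The groups stand apart in 10 of the panels and overlap for CCNE1, through mimic replicate 2, and for MYC, where replicates 1 and 2 of each group lie above replicates 3 and 4.

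Of the 6 mitotic genes 5 fell, and CCNF did not pass. CKS1B, a small subunit that docks on CDKs and also helps SKP2 recognise p27, had 88.4, 84.6, 77.0 and 83.3 CPM with the mimic. The control libraries had 141, 135, 129.8 and 143 CPM, all well above, and the log2 fold change of -0.72 ± 0.05 (edgeR adjusted p = 4.78e-07) makes a level that fell by 39.2%. CCNB2, a B-type cyclin, had 75.7, 71.7, 69.3 and 75.02 CPM against 102, 96.5, 97.0 and 100.2 CPM. It fell by 0.44 ± 0.04 on the log2 scale, and the replicates of each group lay close together. CDK1, the kinase that drives entry into mitosis, had 201, 187, 168 and 177 CPM against 255, 251, 216 and 224 CPM (log2 fold change -0.37 ± 0.07, edgeR adjusted p = 0.00138). In CDK1 the libraries of replicates 3 and 4 were the lower ones in both groups, while each mimic library stayed below each control. CCNB1, the other B-type cyclin, fell by 0.23 and CKS2, the paralogue of CKS1B, by 0.24, with an overlap in CKS2. CCNF, an F-box protein of the cyclin family, had a log2 fold change of -0.12 ± 0.09 (edgeR adjusted p = 0.316), and passed with the replicate block at -0.11 (adjusted p = 0.0378) and in the libraries numbered 1 and 2 at -0.19 (adjusted p = 0.0118).

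Of the 6 phosphatases and kinases that switch CDKs on and off, 4 fell and 2 did not pass. WEE1, the kinase that holds CDK1 inactive, had the lowest log2 fold change of the set. It stood at 55.9, 53.7, 53.0 and 54.0 CPM with the mimic and 91.1, 91.2, 86.4 and 89.9 CPM with the control, and the log2 fold change was -0.73 ± 0.04 (edgeR adjusted p = 4.72e-08). The spread within each group was small beside the gap between the groups. CDC25C, a phosphatase that activates CDK1, had 10.5, 9.36, 11.2 and 11.3 CPM with the mimic and 16.6, 16.1, 17.4 and 16.9 CPM with the control, a log2 fold change of -0.66 ± 0.07. CDC25A, a phosphatase that activates CDKs at the start of S phase and later, had 54.8, 57.2, 50.4 and 52.5 CPM against 74.1, 72.8, 73.0 and 71.2 CPM (log2 fold change -0.44 ± 0.04). Neither phosphatase had an overlap between groups. CDKN3, a phosphatase that removes the activating phosphate from CDK2, fell by 0.31. CDC25B, the other CDK1 phosphatase, averaged 185 ± 6.54 and 181 ± 5.82 CPM (SD, n = 4 each, log2 fold change 0.03 ± 0.04) and did not pass. PKMYT1, the membrane-bound kinase that inhibits CDK1, had a log2 fold change of -0.20 ± 0.14 (edgeR adjusted p = 0.276), and passed with the replicate block at -0.20 (adjusted p = 0.00393).

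Of the 7 inhibitor genes, counting SKP2 with them, 4 fell, 1 rose and 2 did not pass. Of the INK4 proteins, which block CDK4 and CDK6, p15, p18 and p19 fell: CDKN2C (p18) had 31.5, 32.9, 31.4 and 28.9 CPM with the mimic and 44.3, 45.7, 41.6 and 43.0 CPM with the control, a log2 fold change of -0.49 ± 0.05. CDKN2B (p15) had 5.43, 5.73, 5.33 and 5.24 CPM against 7.83, 8.56, 7.97 and 7.48 CPM and fell by 0.55 on the log2 scale. Neither gene had an overlap between the groups, nor did CDKN2D (p19), which fell by 0.49. CDKN1B, which encodes p27, an inhibitor of CDK2 complexes, was the one inhibitor of the list that rose. It had 241, 236, 261 and 242 CPM with the mimic and 184, 184, 197 and 199 CPM with the control, a log2 fold change of 0.36 ± 0.04 (edgeR adjusted p = 5.01e-05), so its level was higher in every mimic library than in any control. SKP2, the F-box protein that marks p27 for destruction, fell by 0.24 ± 0.06 (edgeR adjusted p = 0.00926). CDKN2A, which encodes p16 and ARF, had a log2 fold change of 0.08 ± 0.14, and CDKN1C, which encodes p57, of -0.02 ± 0.13, and both missed the threshold (edgeR adjusted p = 0.703 and 0.940). CDKN2A and CDKN2B have a stretch of close sequence, as do CKS1B and CKS2, and the counting of reads shared by such pairs is unstated in the labels.

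Of the 10 E2F and DP genes 4 fell and 3 rose, with activators and repressors on both sides. Of the activators, E2F1 had 103, 107.44, 94.2 and 95.5 CPM with the mimic and 129, 135, 122 and 116 CPM with the control, a log2 fold change of -0.33 ± 0.06 (edgeR adjusted p = 0.000703). E2F2 had 103, 111, 109 and 113 CPM with the mimic and 83.0, 86.8, 84.2 and 81.9 CPM with the control, a log2 fold change of 0.38 ± 0.04 (edgeR adjusted p = 1.99e-05). Thus the 2 activators moved in opposite directions, each without overlap. E2F3, the third activator, had 48.1, 50.8, 43.5 and 45.3 CPM against 54.5, 57.8, 51.8 and 51.6 CPM and fell by 0.20 ± 0.06 (edgeR adjusted p = 0.0149), a call lost without mimic replicate 3 (adjusted p = 0.0518). E2F8, an atypical repressor that acts without a DP partner, had 25.3, 27.3, 21.9 and 22.7 CPM with the mimic and 36.0, 36.1, 32.2 and 30.2 CPM with the control, a fall of 27.8% with every mimic library below every control. E2F7, its closest relative, had a log2 fold change of -0.12 ± 0.04 just past the threshold (edgeR adjusted p = 0.0450). Leaving out any one library but control replicate 4 ended that call, with adjusted p from 0.0502 to 0.134. The repressors that work with pocket proteins, E2F4 and E2F5, rose by 0.22 ± 0.06 and 0.31 ± 0.06, with an overlap in E2F4. E2F6, a repressor tied to polycomb complexes, had 27.8, 30.2, 29.7 and 29.9 CPM against 29.9, 29.7, 30.9 and 30.4 CPM, and the groups overlapped. The DP partners TFDP1 and TFDP2, which pair with E2Fs on DNA, had log2 fold changes of -0.01 ± 0.08 and -0.12 ± 0.05 and did not pass, while TFDP2 passed with the replicate block at -0.12 (adjusted p = 0.0419) and without control replicate 2 (0.0492).

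Among the pocket proteins, RBL1 (p107) fell and RB1 and RBL2 (p130) did not pass. RBL1 had 27.5, 29.7, 25.0 and 26.7 CPM with the mimic and 34.2, 33.7, 36.1 and 31.8 CPM with the control, a log2 fold change of -0.32 ± 0.06. RB1, the retinoblastoma protein itself, averaged 110.5 ± 2.28 CPM with the mimic and 114 ± 1.62 CPM with the control (SD, n = 4 each). Its log2 fold change was -0.05 ± 0.03 (edgeR adjusted p = 0.226) although each mimic library was below each control. RBL2, which is typical of resting cells, had a log2 fold change of 0.07 ± 0.04 (edgeR adjusted p = 0.162). The drivers of the mitotic wave were lower: FOXM1 had 178, 187, 153 and 165 CPM against 222, 226, 203 and 196 CPM, and MYBL2 (B-MYB) had 83.1, 85.8, 71.5 and 73.3 CPM against 109, 113, 94.8 and 90.2 CPM. Their log2 fold changes were -0.31 ± 0.07 and -0.38 ± 0.08 (edgeR adjusted p = 0.00322 and 0.00459), without overlap, and in both genes replicates 3 and 4 were lower than 1 and 2 within each group.

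MYC, a transcription factor that drives growth and G1 entry, depended most on the replicate number, and its values are given for that reason, after they were seen. It had 177, 167, 120.2 and 106 CPM in mimic replicates 1 to 4 and 140.2, 141, 83.5 and 83.7 CPM in control replicates 1 to 4. Mimic replicates 3 and 4 were thus below control replicates 1 and 2, while each mimic library was above the control of the same number, by 0.33, 0.25, 0.53 and 0.34 on the log2 scale. The fit without a replicate term gave 0.35 ± 0.23, short of the threshold (edgeR adjusted p = 0.282). With the replicate block it was 0.36 and passed (edgeR adjusted p = 6.06e-06), as it did in the libraries numbered 1 and 2 (0.29, adjusted p = 9.34e-05) and in those numbered 3 and 4 (0.44, adjusted p = 0.000696). With the group as a term, the log2 difference of MYC between replicates 3 and 4 and replicates 1 and 2 was -0.68 (edgeR adjusted p = 5.6e-07).

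**Figure D3:**
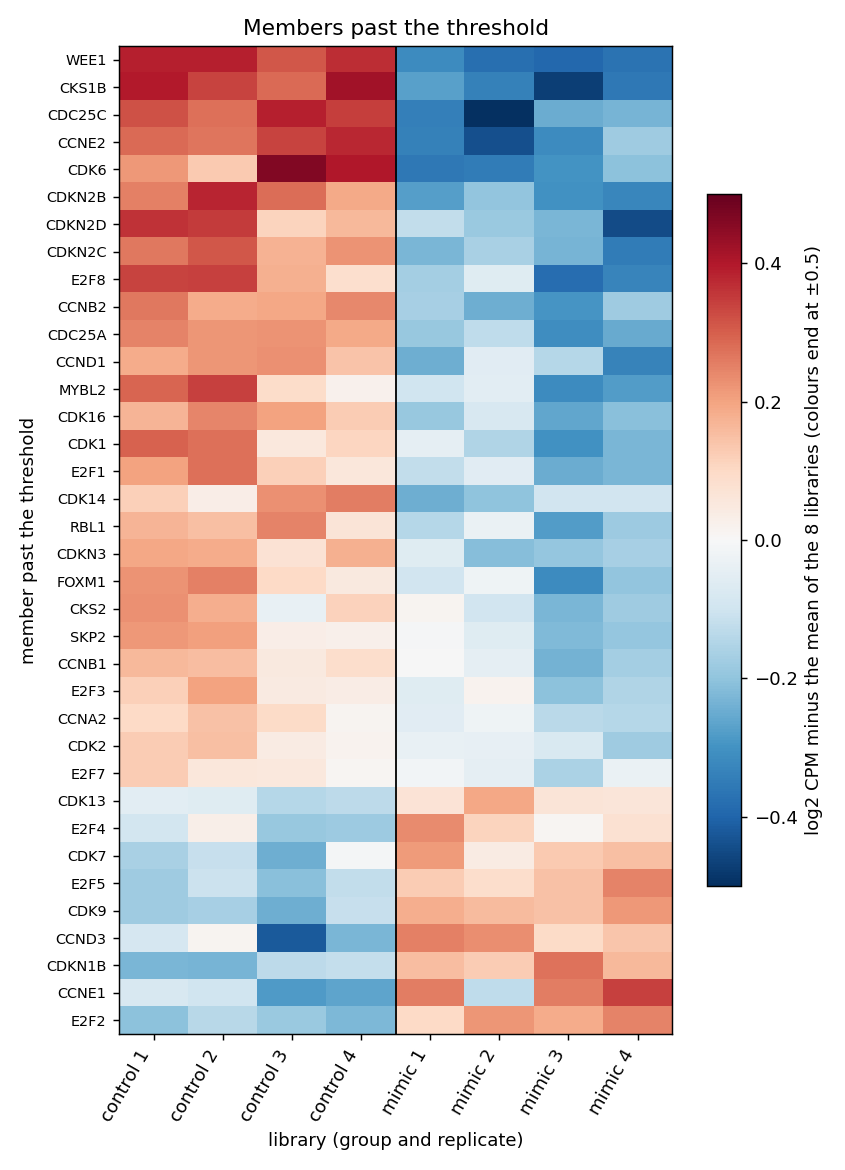
Log2 CPM minus the mean of the 8 libraries for the 36 genes past the threshold (rows, ordered by log2 fold change) in the 4 control and 4 mimic libraries (columns). The 27 upper rows are on average higher in the control columns and the 9 lower rows in the mimic columns, and many upper rows are darker red in control replicates 1 and 2 than in 3 and 4.

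The next genes are CDKs that act on RNA polymerase II, with their cyclins. Of these 8 genes 3 rose, 5 did not pass and 0 fell (0 also at an unadjusted p below 0.05 in edgeR, and 0 in DESeq2 and limma-voom). Over all tested genes 18.3% rose and 19.9% fell. The median log2 fold change of the 8 genes was 0.07, and whether so small a group differs from the whole table was not tested. CDK9, the kinase of the elongation factor P-TEFb, had 41.3, 40.6, 40.3 and 42.3 CPM with the mimic and 32.2, 32.4, 30.8 and 33.6 CPM with the control, a log2 fold change of 0.35 ± 0.04 (edgeR adjusted p = 6.18e-05). CDK13, a kinase of the polymerase tail, had 79.4, 86.8, 79.3 and 79.1 CPM against 73.1, 72.6, 68.6 and 69.1 CPM, and CDK7, the kinase of TFIIH that also activates other CDKs, had 27.6, 24.5, 26.1 and 26.5 CPM against 21.3, 22.0, 20.1 and 23.7 CPM. They rose by 0.19 ± 0.04 and 0.27 ± 0.06 on the log2 scale, and in none of these 3 kinases did the groups overlap. CDK12, the close relative of CDK13, had 113, 116, 109 and 112 CPM with the mimic and 115, 108, 113 and 106 CPM with the control, with a log2 fold change of 0.02 ± 0.04 that did not pass. The cyclins of these kinases did not pass either. CCNH, the cyclin of CDK7, had 114, 111, 104 and 109 CPM against 109.6, 107.08, 94.2 and 98.6 CPM (log2 fold change 0.10), and passed with the replicate block at 0.10 (adjusted p = 0.0193). Of the cyclins of CDK9, CCNT1 had 177, 178, 144 and 148 CPM against 178, 162, 147 and 139.6 CPM. CCNT2 had 50.4, 53.2, 44.7 and 45.2 CPM against 53.0, 51.9, 50.6 and 49.3 CPM, and passed within replicates 3 and 4 alone (log2 fold change -0.15, adjusted p = 0.0427). Both overlapped between the groups over all libraries. CCNK, the cyclin of CDK12 and CDK13, had a log2 fold change of 0.04 ± 0.04.

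Of the 3 CDKs with other roles, the 2 that bind cyclin Y fell. CDK16 had 89.3, 96.4, 85.1 and 88.1 CPM with the mimic and 115, 121, 117 and 111 CPM with the control, and CDK14 had 38.9, 40.1, 43.1 and 43.1 CPM against 49.96, 47.1, 54.0 and 54.98 CPM. Their log2 fold changes were -0.37 ± 0.04 and -0.32 ± 0.06 (edgeR adjusted p = 5.31e-05 and 0.00110), with no overlap. CDK5, best known from neurons, had 25.9, 21.7, 23.0 and 23.6 CPM against 24.0, 24.7, 22.9 and 25.0 CPM and did not pass (log2 fold change -0.04 ± 0.06).

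Genes with a miR-194 site were found on both sides of the response. The 12 genes with an 8mer or 7mer site are 22.2% of the 54, and such sites were in 20.6% of the 13445 genes tested whose 3' UTR could be read. The median log2 fold change of these 12 was -0.06, and 5 of them fell (CDK6, WEE1, CDK14, CCND1 and E2F3), 2 rose (CDKN1B and CDK13) and 5 did not pass. Of the 2768 genes with such a site among all tested, 1129 fell and 314 rose. The 32 genes with no match of 6 or more bases had a median of -0.14, with 16 that fell and 6 that rose, where 1200 of the 9004 such genes in the whole table fell and 2006 rose. Over all tested genes the medians were -0.12 with an 8mer or 7mer site and 0.04 with none. Thus 22 of the 27 falls were in genes without an 8mer or 7mer match in the 3' UTR, CKS1B and CDC25C among them. With 12 of the 54 holding such a match, most genes of the set lack one. Over all tested genes with a readable 3' UTR, 1129 of those that fell held an 8mer or 7mer, 420 a 6mer at best and 1200 none. The 10 genes whose best match was a 6mer included CCNE2, CCNB2, CDK1, CDC25A and CDKN2B. Of the 10, 6 fell and 1 rose, where 420 of the 1673 such genes in the whole table fell and 319 rose. In coding sequence CDK13 held an 8mer match, and E2F8 and E2F3, which fell, and CDK4, CCNT1, CCNT2 and CDK5, which did not pass, held a 7mer match each. Coding sequence was searched in the listed genes alone, so these matches have no share over all tested genes beside them. CDK6 held a 7mer-m8 site at chr7:92613742-92613748 beside its 8mer, and CDK14 a 7mer-A1 site at chr7:91209310-91209316. CCND2, which was not tested, held 2 7mer-m8 sites.

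**Figure D4:**
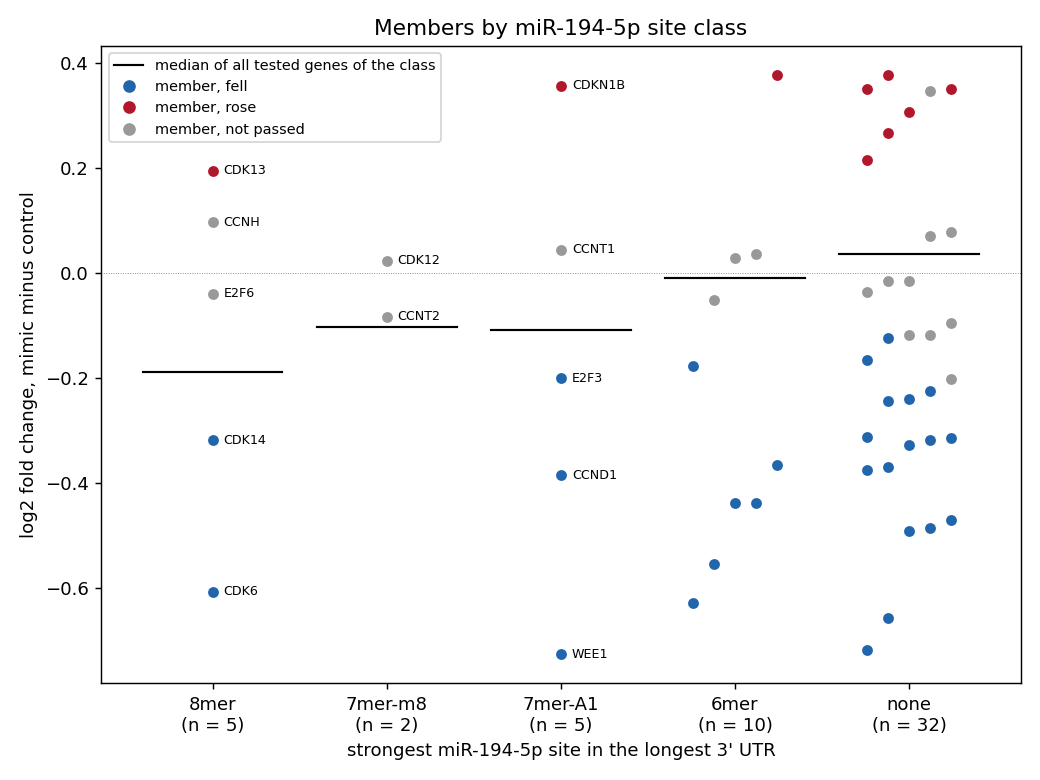
Log2 fold change (mimic minus control, y axis) of the 54 tested genes by the strongest miR-194-5p match in the longest 3' UTR (x axis), with genes named where the site is an 8mer or 7mer. Black lines mark the median of all tested genes of each class. CDKN1B and CDK13, which rose, and CCNH, CCNT1 and CDK12, which did not pass, lie above 0 although they hold a site.

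Promoter letters known from cell cycle genes were looked up because so many of these genes moved together. RefSeq windows (GRCh38.p14, 250 bases before to 50 after the start) matched 44 of the 55 genes, in 67 windows, and both strands were searched for TTTGAA (the cell cycle homology region, CHR, through which MuvB complexes bind), CCAAT (the box of the factor NF-Y) and TTTCGCGC or TTTGGCGC (E2F). No 2 matches overlapped in these windows. A window may belong to an alternative start, so the main promoter of a gene may not have been searched. The RB1 window, chr13:48476200-48476499, lies near the 3' end of the gene, whose 3' UTR holds a 6mer at chr13:48481826-48481831. TTTGAA was in 7 of 21 genes that fell, in 0 of 8 that rose and in 3 of 15 that did not pass, against 13.8% of 10216 tested genes with a window and 15.2% of all 35116 windows. CCAAT was in 15 of the 21, 2 of the 8 and 7 of the 15, against 43.3% of tested genes and 34.6% of windows. The E2F letters were in 4 of the 21 (CDC25A, CDK1, E2F1 and RBL1), 1 of the 8 (E2F2) and 1 of the 15 (TFDP1), against 2.35% of tested genes and 1.15% of windows. Only these exact letters were counted. Other forms of the motifs were not searched, so a gene without a match may still hold one.

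The 4 stretches below, from 100 bases before the start to 10 after it, are of genes that fell and were picked for a TTTGAA close to the start at a like distance, with TTTGAA and CCAAT, or the reverse complement of either, in capitals. TTTGAA begins at -29 in CCNB2 and CKS2 and at -30 in CDC25C and CKS1B, counted from the start, and a CCAAT begins at -54 in CCNB2 and CKS1B and at -52 in CKS2, while the one in CDC25C begins at -85. The other 3 genes that fell hold TTTGAA elsewhere, at -65 in E2F3, at -170 in CDKN3 and at -161, -69, -13 and 9 over the windows of CDK1, and a second window of CDC25C has it at 43. Of the genes that did not pass, TFDP2 holds it at -29 and, in another window, at -138, CCNF at -85 and RBL2 at 24. The CCNF window also holds CCAAT, nearest to the start at -106.
CCNB2, chr15:59105046-59105155, plus strand: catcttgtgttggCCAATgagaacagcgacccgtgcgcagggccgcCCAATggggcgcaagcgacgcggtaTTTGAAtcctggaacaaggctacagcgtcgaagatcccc
CDC25C, chr5:138331795-138331904, minus strand: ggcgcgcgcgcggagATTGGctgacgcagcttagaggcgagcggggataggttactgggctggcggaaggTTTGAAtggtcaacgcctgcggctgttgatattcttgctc
CKS1B, chr1:154974581-154974690, plus strand: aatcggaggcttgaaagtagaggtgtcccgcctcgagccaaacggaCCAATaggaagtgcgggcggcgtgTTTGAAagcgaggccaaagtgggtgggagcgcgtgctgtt
CKS2, chr9:89311095-89311204, plus strand: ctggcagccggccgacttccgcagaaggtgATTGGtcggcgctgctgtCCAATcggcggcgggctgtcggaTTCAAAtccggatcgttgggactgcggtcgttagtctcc

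The same stretch of 4 genes with the E2F letters, here alone in capitals, is shown because 3 of them fell and E2F2 rose. In E2F2 the match begins at -42 and in CDC25A at -44, in E2F1 at -20, and in RBL1 there are 2, at -26 and -16. These are matches of letters, and binding was not measured.
E2F1, chr20:33686376-33686485, minus strand: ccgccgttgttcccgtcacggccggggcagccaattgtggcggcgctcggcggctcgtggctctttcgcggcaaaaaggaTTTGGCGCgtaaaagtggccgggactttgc
RBL1, chr20:37095988-37096097, minus strand: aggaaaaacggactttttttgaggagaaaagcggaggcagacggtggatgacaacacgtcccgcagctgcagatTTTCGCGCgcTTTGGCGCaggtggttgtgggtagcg
CDC25A, chr3:48188408-48188517, minus strand: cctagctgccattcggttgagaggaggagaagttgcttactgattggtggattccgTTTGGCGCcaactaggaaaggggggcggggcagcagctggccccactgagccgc
E2F2, chr1:23531224-23531333, minus strand: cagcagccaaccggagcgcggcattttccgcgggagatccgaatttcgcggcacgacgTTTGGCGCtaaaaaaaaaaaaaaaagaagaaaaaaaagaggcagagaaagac

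Both pairs of replicate numbers gave similar counts. Within replicates 1 and 2 alone 27 of the genes fell and 9 rose, within replicates 3 and 4 alone 27 fell and 10 rose, and 26 falls and 9 rises were shared. Over all genes the 18 alternative fits, both of these among them, gave 2543 to 3838 falls and 2308 to 3778 rises. The genes are not quite those called over all libraries. MYC rose in both pairs and E2F7 passed in neither. CCNF passed and CCNE1 was lost in replicates 1 and 2, and CCNT2 passed in replicates 3 and 4. Many of the 54 genes also differed between these pairs. With the group as a term, 19 of 54 were lower and 4 higher in replicates 3 and 4 than in 1 and 2 at an adjusted p below 0.05, against 11.8% lower and 10.2% higher over all tested genes. Among the genes past the threshold between the pairs, CCNT1 at -0.26, MYBL2 at -0.24, CCNF at -0.23 and TFDP1 at -0.23 followed MYC. Of these, MYBL2 alone also passed between mimic and control. At the other end of these log2 differences stood CDK6 at 0.18 and CDK14 at 0.15. CDKN2A at -0.30 and PKMYT1 at -0.29 did not pass (edgeR adjusted p = 0.109 and 0.129). What separates the pairs was not tested, and the labels name no batch.

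**Figure D5:**
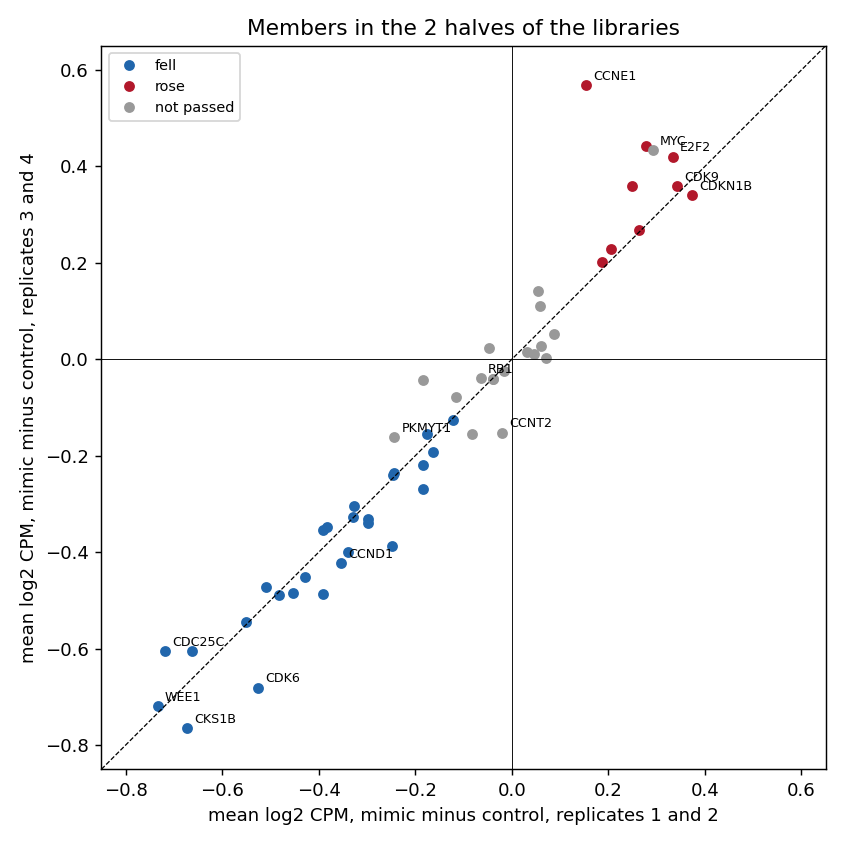
Difference of mean log2 CPM (mimic minus control) of the 54 tested genes within replicates 1 and 2 (x axis) and within replicates 3 and 4 (y axis), with a dashed line where both are equal. Genes that fell lie at the lower left, near the line, and CCNE1 lies farthest from it, at 0.15 and 0.57.

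Genes on either side of these switches were counted from lists that leave the 55 genes out. Of 28 G1/S and DNA synthesis genes, 24 fell (85.7%), and of 28 G2/M genes, 25 fell (89.3%). Over all tested genes 19.9% fell and 18.3% rose. None of either list rose, with 0 also at an unadjusted p below 0.05 in edgeR and 0 in DESeq2 and limma-voom. Their median log2 fold changes were -0.27 and -0.32. In the first list SLBP, the histone mRNA binding protein, fell by 0.85. PCNA, the polymerase clamp, fell by 0.66 and GINS1, part of the helicase that opens DNA, by 0.71. In the second PRC1, which bundles spindle microtubules, fell by 0.91, HMMR by 0.72 and the kinesin KIF2C by 0.50. Of 12 partners of RB and MuvB 8 fell (66.7%) and 1 rose (8.33%), with a median of -0.18. LIN9 and LIN52, both MuvB subunits, fell by 0.59 and 0.47, and RBBP4, a histone chaperone shared with MuvB, by 0.41.

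The remaining lists hold the checkpoints, the ligases that destroy cyclins, other cyclins and the partners of MYC, and their counts stand beside 19.9% lower and 18.3% higher over all tested genes. Of 12 checkpoint genes 6 fell and 0 rose (0 at an unadjusted p in edgeR and 0 in the other tools). RAD1, of the clamp that senses damaged DNA, fell by 0.57, TOPBP1 by 0.45 and the kinase CHEK1 by 0.27. Of 22 SCF and APC/C ubiquitin ligase genes 5 fell (22.7%) and 2 rose (9.09%), with a median of -0.05. With the replicate block 8 of them fell, in a fit where 3838 of all 14977 genes tested fell. CDC23, a subunit of the APC/C, fell by 1.13, from 99.5 to 45.4 CPM on average, while CDC26, another subunit, rose by 0.50 and FBXW7, the F-box protein that marks cyclin E, fell by 0.20. Of 28 tested genes among other cyclins, CDKs and their partners, 7 fell (25%) and 6 rose (21.4%), shares near those of the whole table. CCNC, the cyclin of the Mediator kinases, rose by 1.10 and CDK19, one of those kinases, by 0.58, while CABLES2 fell by 0.93. Of 11 MYC partners and antagonists 1 fell (9.09%) and 2 rose (18.2%), namely MXI1 at -0.27, MXD4 at 0.46 and MAX, the partner of MYC, at 0.22.

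Reads from opposite strands may mix in these counts, since their strand setting is unstated in the labels. In GENCODE 29, 13 of the 55 genes share exonic bases with a gene of the table on the other strand. CCNE2 shares 1629 bases with INTS8, whose log2 fold change was -0.18, and CDK4 shares 1369 with TSPAN31, at 0.11. FOXM1 shares 781 bases with ITFG2, which rose by 0.34 while FOXM1 fell, and CCNH 771 with RASA1, which rose by 0.26. RBL2 shares 610 bases with AKTIP, which fell by 0.43. The longest shared stretch, 4893 bases, is between CCNK and CCDC85C, at -0.03.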

How the data were processed

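The authors deposited raw read counts per gene symbol for 8 libraries, 4 per group, grouped by sample title. STAR, cutadapt 1.8.1, FastQC, edgeR 3.3, R 3.2.3 and the build hg19 are named, without roles, per the submitters' processing notes. The counting program, annotation, strand setting and treatment of shared reads were not given in the sources used here.

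The test was that of edgeR 4.0.16, run in R 4.3.3 (filterByExpr, TMM factors, robust quasi-likelihood fit, Benjamini-Hochberg adjustment over 14977 genes, two-sided, threshold 0.05) and no term but the group. Each SE is the size of the log2 fold change over the root of its F. CPM use TMM library sizes, and a prior count of 2 was added for log2 CPM. Alternatives were DESeq2 1.42.0, limma 3.58.1 (voom), other factors and filters, the replicate block and subsets of libraries. A floor of 3 counts is 0.0638 to 0.0930 CPM and covers counting error only. The fit was tested on simulated data, in which libraries were drawn independently and had no replicate effect. That test therefore does not cover such an effect.

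Libraries with the same number shared their deviations from the group mean (correlations over genes of 0.27, 0.34, 0.18 and 0.43, all above 0.1), so the numbers were taken to pair the libraries and the replicate block is given where it changes a call. The pairing comes from the shared numbers in the titles. Mimic 1 with control 2 (0.26), 2 with 1 (0.28), 3 with 4 (0.20) and 4 with 3 (0.32) deviated together as well, so other pairings within 1 and 2 or within 3 and 4 meet that bound too.

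The genes and lists were chosen with earlier results of these data known. Values per library are given for the 3 smallest p in each role group and for genes with an 8mer or 7mer site; of each other list, the 3 smallest p are named. ANAPC15 and MYCL were matched by an older symbol. Sites and promoters were read with Python 3.11.15 from GENCODE 29 and RefSeq, neither on the build of the counts, so genes were joined by symbol; 3' UTRs under 50 bases were left out. No 2 replicates agreed within sampling noise (chi-square over its degrees of freedom 3.77 to 17.4).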

Additional observations from a re-analysis of the deposited data

Results flagged for a closer look

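In 5 of the 152 groups of 4 libraries examined (the 55 genes and the named genes of the other lists, in each group) 1 library lay far from the other 3 by Dixon's ratio of gap to range, where chance gives about 1 in 20. CDKN3 had 52.7 CPM in control replicate 3 against 56.7 CPM in the nearest control. CDK13 had 86.8 CPM in mimic replicate 2 against 79.4 CPM in the nearest mimic library. SLBP had 140.2 CPM in control replicate 3, with the nearest at 151 CPM, and PCNA had 382 CPM in the same library, with the nearest at 408 CPM. TOPBP1 had 157 CPM in control replicate 1, with the nearest at 145.5 CPM. CDKN3, SLBP and PCNA were lower in control replicate 3 and lower still in every mimic library.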

How the results depend on the processing

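Of the 36 genes past the threshold, 33 kept their direction and their call under all 18 alternatives, the exceptions being CCNE1, E2F3 and E2F7. The number that fell ran from 25 to 31 and the number that rose from 9 to 11 over the alternatives. The replicate block gave 31 and 11 and changed no call of the 55 genes other than those of CDK4, CCNF, PKMYT1, TFDP2, CCNH and MYC. More of all 14977 genes tested passed under that block as well. Of these 3838 fell and 3778 rose, against 2975 and 2737 without the block. With 1 library left out 25 to 27 fell and 9 rose, and the median log2 fold change ran from -0.18 to -0.12. E2F7 was also lost with no filter on low counts (adjusted p = 0.0605), in the libraries numbered 1 and 2 (adjusted p = 0.0699) and in those numbered 3 and 4 (0.125). Under the replicate block the number of SCF and APC/C genes that fell moved from 5 to 8, and the cause was not tested. Values near 0 that changed sign, none of them past the threshold, were CDKN1C at 0.0024 and TFDP1 at 0.025 within replicates 3 and 4. With 1 library left out CDKN1C ran from -0.12 to 0.098, TFDP1 from -0.065 to 0.036, CCNT1 from -0.0078 to 0.11 and CDK5 from -0.083 to 0.0013. The median log2 fold change of all tested genes ran from -0.014 with library totals alone to 0.0079 with upper quartile factors over the scalings tried.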
